A study of Homo sapiens with 10 samples.

Results

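The genes described here encode 6 ligands of the ERBB receptors (HBEGF, AREG, EREG, TGFA, BTC and NRG1), 3 of the receptors themselves (EGFR, ERBB2 and ERBB3) and ADAM17, the protease that releases several of the ligands from the cell surface. They were chosen by name for their place in one signalling system, with earlier results of these libraries known. They make up 10 of the 58174 gene identifiers in the count tables. All 10 passed the filter on low counts and are among the 13743 genes tested. The libraries come from SNU-387, an established human hepatocellular carcinoma line that the labels grade IV/V and pleomorphic. Stable lines expressed either wild type YES (WT, 5 libraries) or YES carrying the T348I change (T348I, 5 libraries). YES is a SRC-family tyrosine kinase, and T348I alters the gatekeeper residue of its drug-binding pocket. All 10 libraries, controls included, were from cells given 100 nM dasatinib, an inhibitor of SRC-family and ABL kinases, and no library without the drug was used here. The labels do not say what promoter drives YES, whether each line is 1 clone, or whether the libraries of a group are separate cultures, so p-values measure the spread between these libraries only, which may be technical.

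The sample titles come in 2 styles that each hold both genotypes. A long style that spells out the cell line and drug was used for 3 libraries of each genotype, and a short style for 2 of each. The labels do not call either style a batch, but the first principal component of all genes (50.5% of variance) separated the styles and the second (22.4%) separated the genotypes. Libraries are therefore named by genotype and title style, and every genotype difference is also given within each style. Each library held 10168307 to 16939029 gene counts. Levels are given in CPM, counts scaled to a common library size. YES1 lay between 208 and 454 CPM in WT and between 313 and 547 CPM in T348I. The ranges overlapped, and the level was higher in T348I (log2 0.59 ± 0.19 SE, edgeR adjusted p = 0.0326). These gene-level counts cannot tell the introduced from the native transcript or one allele from the other. WT long-title library 1 stood apart: its counts differed from those of the other WT long-title libraries by a chi-square of 38.7 to 54.7 per degree of freedom, against 1.63 to 2.16 among the 3 T348I long-title libraries, which were the most alike. Of 10 hepatocyte markers, 6 stayed under 1 CPM in every library, and TTR and CYP3A4 were at 0 throughout; ALB had at most 1 read in a library. The summed markers lay between 10.4 and 23.6 CPM in WT and between 10.4 and 24.0 CPM in T348I, mostly from SERPINA1. Summed mesenchymal markers reached 12510 to 37480 CPM in WT, highest in WT long-title library 1 through FN1, and 9064 to 13660 CPM in T348I. FN1 alone passed among the 9 tested, lower in T348I (log2 -1.12, edgeR adjusted p = 0.00556). It lay between 8749 and 26240 CPM in WT and between 4860 and 6217 CPM in T348I. The log2 values of the 9 ran from -1.20 to 0.15 in both directions, with a median of -0.006. The sum of 7 epithelial markers lay between 801 and 1074 CPM in WT and between 1104 and 1158 CPM in T348I. Of the 5 tested, KRT18, CLDN1 and CLDN4 were higher in T348I (log2 0.40, 0.75 and 0.32). KRT8 (log2 0.15, edgeR adjusted p = 0.255) and EPCAM (log2 -0.51, edgeR adjusted p = 0.194) did not pass. CDH1 and KRT19 stayed under 1 CPM in every library. Of 6 blood and endothelial markers, 3 stayed under 1 CPM everywhere, and the sum lay between 9.78 and 59.3 CPM in WT and between 5.54 and 8.60 CPM in T348I. The 2 tested, CD14 (log2 -1.58, edgeR adjusted p = 0.0279) and PECAM1 (log2 -1.15, edgeR adjusted p = 0.00985), were lower in T348I. CD14 was highest in WT long-title library 1 (45.1 CPM). The part of these marker differences in the results that follow was not tested.

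Ligands of this family are made as membrane-anchored precursors. Proteases, ADAM17 foremost for HBEGF, AREG, EREG and TGFA and ADAM10 for BTC and EGF, cut the extracellular part free, and the released ligand acts on the same cell or its neighbours. AREG and TGFA bind EGFR, HBEGF, EREG and BTC bind EGFR and ERBB4, and NRG1 binds ERBB3 and ERBB4. ERBB2 has no known ligand and joins the other receptors in heterodimers, in which ERBB3, whose own kinase activity is weak, is a main docking partner for PI3 kinase. Paired receptors drive RAS, ERK and PI3 kinase signalling. In liver, EGFR ligands are best known for their part in regeneration and in tumour growth. These counts measure transcripts, and shedding, receptor number and receptor activity were not measured.

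With all 10 libraries in one model that included the title style, 5 of the 6 ligand genes were higher in T348I (adjusted p under 0.05), none of the 3 receptor genes passed the test, and ADAM17 was lower. Over all genes tested, 27.0% passed the same test, 13.7% higher and 13.3% lower in T348I. Because the 10 genes were chosen with earlier results of these libraries known, the 5 of 6 is no independent evidence. EGF, a tested ligand outside the 6, was lower in T348I (log2 -0.78, edgeR adjusted p = 0.0281). Over the 10 genes, the 5 called higher became 3 without WT long-title library 3 or any single T348I long-title library and 6 without WT long-title library 1, the added gene being EGFR. The 1 called lower became 2 without WT long-title library 1 or 2 or T348I long-title library 1. Adding up the 3 T348I long-title libraries as 1 left 2 higher (HBEGF and NRG1) and 0 lower. The 6 ligands, without EGF, had a median log2 fold change of 0.59, beside a median of -0.03 over all genes. Complete separation was seen for 2 of the 10 genes, HBEGF and NRG1, had every T348I library above every WT library, and over all genes 6.94% did so and 4.15% did so with T348I lower. The plot of levels by library shows both patterns.

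**Figure D1:**
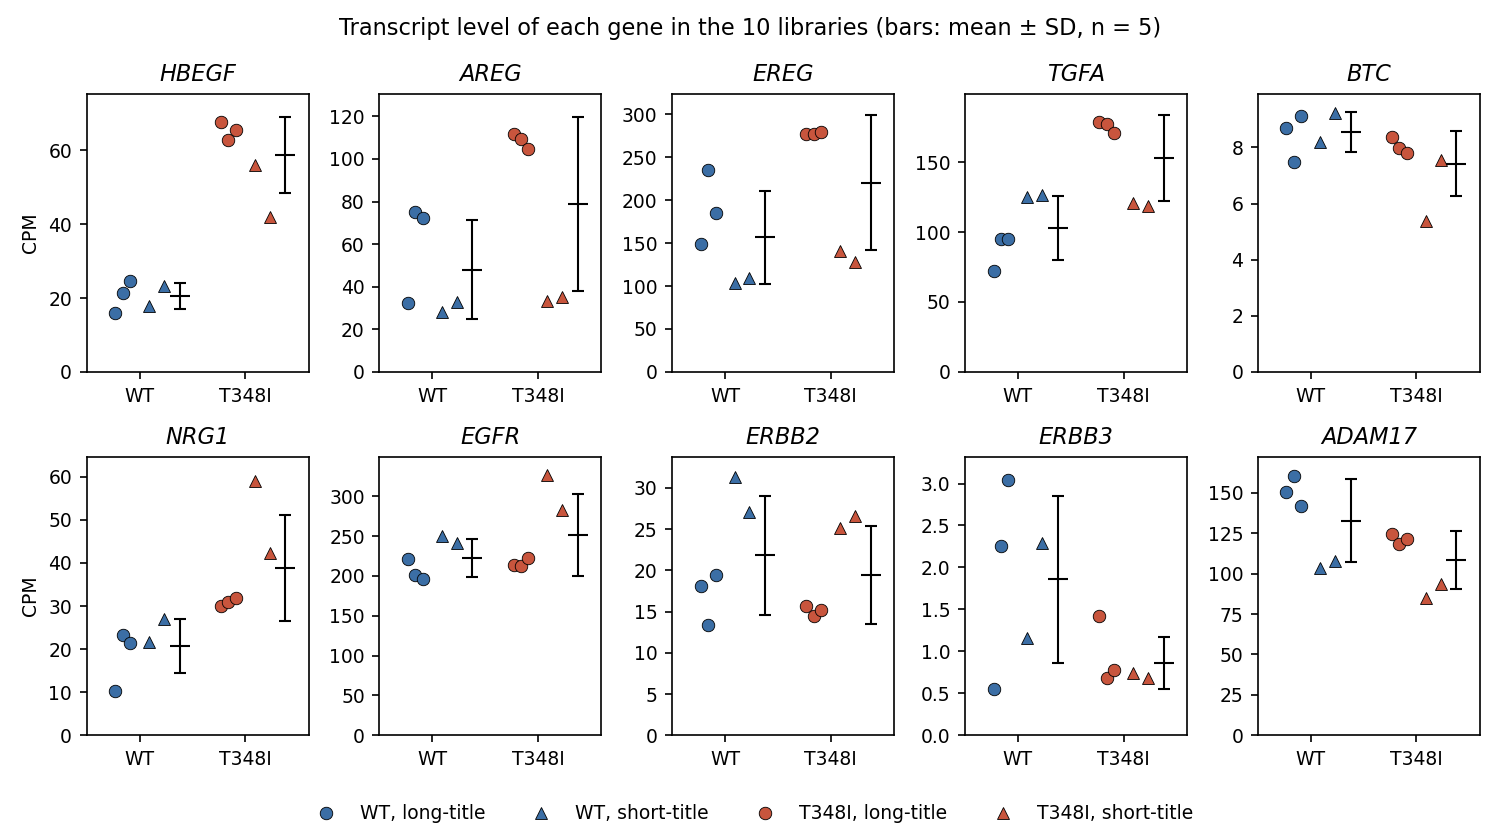
Transcript level in CPM (vertical axes from 0) of the 10 genes in each library, by genotype (WT, T348I) and title style (circles long, triangles short); bars are the mean ± SD of 5 libraries. HBEGF and NRG1 are higher in all T348I libraries than in any WT library, while EREG in every short-title library is below EREG in every long-title library, and AREG is at 28.1 to 35.1 CPM in the short-title libraries and in WT long-title library 1 (32.2 CPM) and higher in the others.

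HBEGF encodes heparin-binding EGF-like growth factor. Its level in the WT libraries was 16.1, 21.3 and 24.6 CPM (long title) and 17.9 and 23.2 CPM (short title). In T348I it was 67.6, 62.8 and 65.6 CPM (long title) and 56.0 and 42.1 CPM (short title). Every T348I library exceeded every WT library, and the WT libraries showed no separation by title style. Among the T348I libraries, both short-title ones lay below every long-title one. The group means were 20.6 ± 3.56 and 58.8 ± 10.4 CPM (SD, n = 5 each), a 2.82-fold rise (95% interval 2.31 to 3.44; log2 1.496 ± 0.13 SE; edgeR adjusted p = 4.72e-05). Of the 10 genes it had the largest rise, and it rose within the long-title libraries alone (log2 1.66, edgeR adjusted p = 0.00347) and in the short-title set (log2 1.26, edgeR adjusted p = 0.00233). Its call held under all 24 alternatives run, with log2 values from 1.26 to 1.66, and was 1.38 without WT long-title library 1.

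AREG, encoding amphiregulin, and EREG, encoding epiregulin, are neighbours. On GRCh38, EREG lies at chr4:74365143-74388751 and AREG at chr4:74445134-74455009, both on the plus strand and 56382 bases apart, in a cluster of EGF-family genes that spans 486 kb. EPGN lies 49835 bases before EREG, and BTC, on the minus strand at chr4:74744759-74794686, lies 289749 bases after AREG. AREG stood at 32.2, 74.9 and 72.2 CPM in the WT long-title libraries and at 28.1 and 33.1 CPM in the short-title ones. Its T348I levels were 112, 110 and 105 CPM (long title) and 33.4 and 35.1 CPM (short title). T348I lay above WT within each style, but the T348I short-title libraries fell below 2 of the WT long-title ones. AREG rose 1.51-fold (95% interval 1.13 to 2.03; log2 0.60 ± 0.20 SE; edgeR adjusted p = 0.0392), from 48.1 ± 23.3 to 78.9 ± 40.8 CPM (SD, n = 5 each). Neither style passed alone, with log2 0.86 (edgeR adjusted p = 0.0766) in the long-title and 0.18 (edgeR adjusted p = 0.452) in the short-title libraries. The difference between the styles did not pass (edgeR interaction test, adjusted p = 0.997). The call ended on leaving out WT long-title library 3, WT short-title library 1 or any single T348I long-title library (edgeR adjusted p = 0.0557, 0.0661 and 0.0786 to 0.0902), and the log2 value was 0.39 without WT long-title library 1, a move of more than 1.5 times.

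EREG was at 149, 234 and 185 CPM in the WT long-title libraries and at 104 and 110 CPM in the short-title ones. In T348I it was at 277, 277 and 279 CPM (long title) and at 141 and 128 CPM (short title). As with AREG, T348I exceeded WT inside each style and the pooled groups overlapped. EREG rose 1.38-fold (95% interval 1.18 to 1.62; log2 0.46 ± 0.11 SE; edgeR adjusted p = 0.00639), and within the styles the log2 values were 0.55 and 0.35 (edgeR adjusted p = 0.0573 long, 0.0866 short). When the 3 long-title T348I libraries were added up as 1 library, the adjusted p was 0.0696 for EREG and 0.209 for AREG (edgeR).

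Sequences just upstream of the RefSeq starts of HBEGF, AREG and EREG are shown because the 3 genes differed in how they separated the genotypes. HBEGF did so over all 10 libraries. AREG and EREG, which sit side by side, did so only within each title style, and their levels also differed between the styles. The sequences were taken from RefSeq's GRCh38.p14 table, in which 8 of the 10 genes have an entry, and each ends before the GENCODE gene start. HBEGF is chr5:140346632-140346853 on the minus strand, AREG chr4:74444886-74445133 and EREG chr4:74364895-74365142, both on the plus strand. Lower case is the sequence on the gene's strand, 5′ to 3′, and capitals mark matches to the motifs searched: TGACTCA or its reverse complement for AP-1, GGAATG or its reverse complement for TEAD, CCGGAA for ETS, GGGCGG for SP1 (each on both strands), TGACGTCA for CREB (the CRE), the SRF CArG box, and TATAAA on the gene's strand.

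HBEGF: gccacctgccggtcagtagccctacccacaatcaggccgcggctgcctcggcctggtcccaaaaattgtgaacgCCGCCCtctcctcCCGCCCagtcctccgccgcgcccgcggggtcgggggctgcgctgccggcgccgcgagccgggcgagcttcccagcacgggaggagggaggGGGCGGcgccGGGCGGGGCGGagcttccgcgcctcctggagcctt
AREG: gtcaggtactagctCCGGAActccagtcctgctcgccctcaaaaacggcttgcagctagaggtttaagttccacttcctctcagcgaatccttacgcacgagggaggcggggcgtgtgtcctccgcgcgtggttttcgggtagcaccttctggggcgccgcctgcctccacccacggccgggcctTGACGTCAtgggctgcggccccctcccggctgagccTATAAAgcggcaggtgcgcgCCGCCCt
EREG: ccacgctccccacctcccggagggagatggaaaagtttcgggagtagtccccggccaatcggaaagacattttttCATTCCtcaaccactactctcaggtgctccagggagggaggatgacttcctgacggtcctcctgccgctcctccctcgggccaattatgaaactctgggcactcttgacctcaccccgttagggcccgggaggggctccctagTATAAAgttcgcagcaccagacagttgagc

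Motifs and GC content were counted over the whole 250 bases before each RefSeq start, of which the sequences above show 222 (HBEGF) or 248 (AREG and EREG). Over the 35116 windows of 250 bases in the table, 6.80% hold TATAAA, 1.65% the CRE, 42.6% GGGCGG, 14.5% CCGGAA, 11.9% the TEAD letters, 4.2% those of AP-1 and 1.16% a CArG box. The AREG and EREG windows each hold TATAAA, at base -29 and base -32 counted back from the RefSeq start. AREG also holds the CRE letters at base -65, GGGCGG on the opposite strand at -9 and CCGGAA at -236, and EREG the TEAD letters at -175. The HBEGF window holds GGGCGG 5 times, with 2 of the matches overlapping by 1 base, and no TATAAA. Its GC content was 76.4%, above that of 91.9% of the windows, whose median was 58.0%. These matches are descriptions of letters, and binding was not measured.

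TGFA encodes transforming growth factor alpha. The WT long-title libraries held 71.9, 94.9 and 95.4 CPM and the T348I long-title libraries 179, 177 and 171 CPM. The WT short-title libraries held 125 and 127 CPM and the T348I short-title libraries 121 and 119 CPM. T348I was thus above WT in every long-title library and below it in every short-title library. The rise was 1.49-fold with all libraries (95% interval 1.16 to 1.91; log2 0.57 ± 0.17 SE; edgeR adjusted p = 0.0231), 1.003 on the log2 scale in the long-title set by itself (edgeR adjusted p = 0.00617) and -0.06 in the short-title set by itself (edgeR adjusted p = 0.792). The difference between the styles was -1.08 ± 0.17 SE on the log2 scale (edgeR interaction test, unadjusted p = 3.7e-05, adjusted p = 0.509). No gene passed that test after adjustment (0% of 13743 genes tested), and 459 (3.34%) had an unadjusted p under 0.05 in the same edgeR interaction test. The TGFA interaction did pass without WT long-title library 1 (-0.98, edgeR adjusted p = 0.0202) and without the filter on low counts (-1.09, edgeR adjusted p = 4.3e-05). The pooled call ended on leaving out WT long-title library 3 or any single T348I long-title library (edgeR adjusted p = 0.0542 to 0.0586).

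BTC, encoding betacellulin, was the 1 ligand gene that did not pass. It had 8.70, 7.47, 9.11, 8.21 and 9.22 CPM in the WT libraries and 8.37, 7.98, 7.81, 5.40 and 7.57 CPM in the T348I libraries, in each case the 3 long-title before the 2 short-title ones. The groups overlapped. The log2 difference of -0.21 did not pass (95% interval -0.49 to 0.07; edgeR adjusted p = 0.258), which leaves room for a fall of up to 0.49 on the log2 scale. BTC shares its cluster with AREG and EREG, and its log2 difference against theirs was not tested.

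NRG1, encoding neuregulin 1, the ligand of ERBB3 and ERBB4, measured 10.3, 23.4 and 21.4 CPM (long title) and 21.6 and 27.0 CPM (short title) in WT. In T348I it measured 30.1, 30.8 and 31.9 CPM (long title) and 59.1 and 42.3 CPM (short title). All T348I libraries lay above all WT libraries. NRG1 rose 1.85-fold (95% interval 1.41 to 2.42; log2 0.89 ± 0.18 SE; edgeR adjusted p = 0.00339), from 20.7 ± 6.27 to 38.9 ± 12.4 CPM (SD, n = 5 each). It passed within the short-title libraries alone (log2 1.07, edgeR adjusted p = 0.00372) and not within the long-title ones (log2 0.76, edgeR adjusted p = 0.0986). The difference between the styles did not pass (edgeR interaction test, adjusted p = 0.997). Without WT long-title library 1, the lowest library, the log2 value was 0.75 (edgeR adjusted p = 0.00047).

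EGFR, the receptor shared by most of these ligands, had 221, 201 and 197 CPM (long title) and 250 and 242 CPM (short title) in WT. In T348I it had 214, 212 and 223 CPM (long title) and 327 and 283 CPM (short title). The long-title groups overlapped, and in the short-title libraries T348I was above WT. The log2 difference was 0.17 (95% interval -0.003 to 0.33; edgeR adjusted p = 0.133), so a rise of up to 1.26-fold is within the interval. It passed without WT long-title library 1 (log2 0.21, edgeR adjusted p = 0.0412).

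ERBB2, the receptor with no known ligand, measured 18.1, 13.4 and 19.4 CPM (long title) and 31.3 and 27.1 CPM (short title) in WT, and 15.7, 14.5 and 15.2 CPM (long title) and 25.1 and 26.5 CPM (short title) in T348I. The libraries separated by title style, and the pooled genotypes overlapped (log2 -0.17; 95% interval -0.40 to 0.06; edgeR adjusted p = 0.248). The difference passed without WT long-title library 2 (log2 -0.24, edgeR adjusted p = 0.0404). ERBB3 had the fewest reads, 7 to 36 reads in a library. It measured 0.549, 2.26, 3.04, 1.16 and 2.29 CPM in WT and 1.42, 0.682, 0.781, 0.739 and 0.688 CPM in T348I, in the same order of libraries. The groups overlapped through WT long-title library 1 and T348I long-title library 1, and the log2 difference of -1.10 ± 0.40 SE did not pass (edgeR adjusted p = 0.0558). It passed without WT long-title library 1 (log2 -1.38, edgeR adjusted p = 0.00209) and without T348I long-title library 1 (log2 -1.34, edgeR adjusted p = 0.0472), as well as with DESeq2 (adjusted p = 0.0385) and without the filter on low counts (edgeR adjusted p = 0.00227).

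ADAM17, the protease known as TACE, measured 151, 160 and 142 CPM (long title) and 104 and 108 CPM (short title) in WT. In T348I it measured 125, 118 and 121 CPM (long title) and 85.2 and 93.8 CPM (short title). T348I lay below WT within each style, while the pooled groups overlapped. ADAM17 fell by 0.28 on the log2 scale (95% interval -0.42 to -0.14; edgeR adjusted p = 0.00671), to 0.821 of the WT level. The fall was -0.32 in the long-title libraries (edgeR adjusted p = 0.057) and -0.22 in the short-title ones (edgeR adjusted p = 0.251). When the 3 long-title T348I libraries were added up as 1 library, the edgeR adjusted p was 0.101, and without the filter on low counts it was 0.0503.

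Within a title style alone, 2 of the 10 genes passed in the long-title libraries (HBEGF and TGFA), beside 5.21% of genes higher and 3.73% lower. In the short-title libraries 2 passed (HBEGF and NRG1), beside 6.43% of genes higher and 4.12% lower. The long-title count rested on the libraries used: it was 7 without WT long-title library 1, 6 without WT long-title library 2, 1 without T348I long-title library 1 or 2, and 0 without T348I long-title library 3. In all 3 long-title libraries against 3, 6 of the 10 genes did not overlap, beside 35.1% of all genes, and in the 2 short-title libraries against 2 all 10 did not overlap, beside 59.3% of all genes. These counts take both directions. ADAM17 was lower in T348I in both styles. In the short-title libraries TGFA, BTC, ERBB2 and ERBB3 were lower as well, TGFA by a log2 value of only -0.058.

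**Figure D2:**
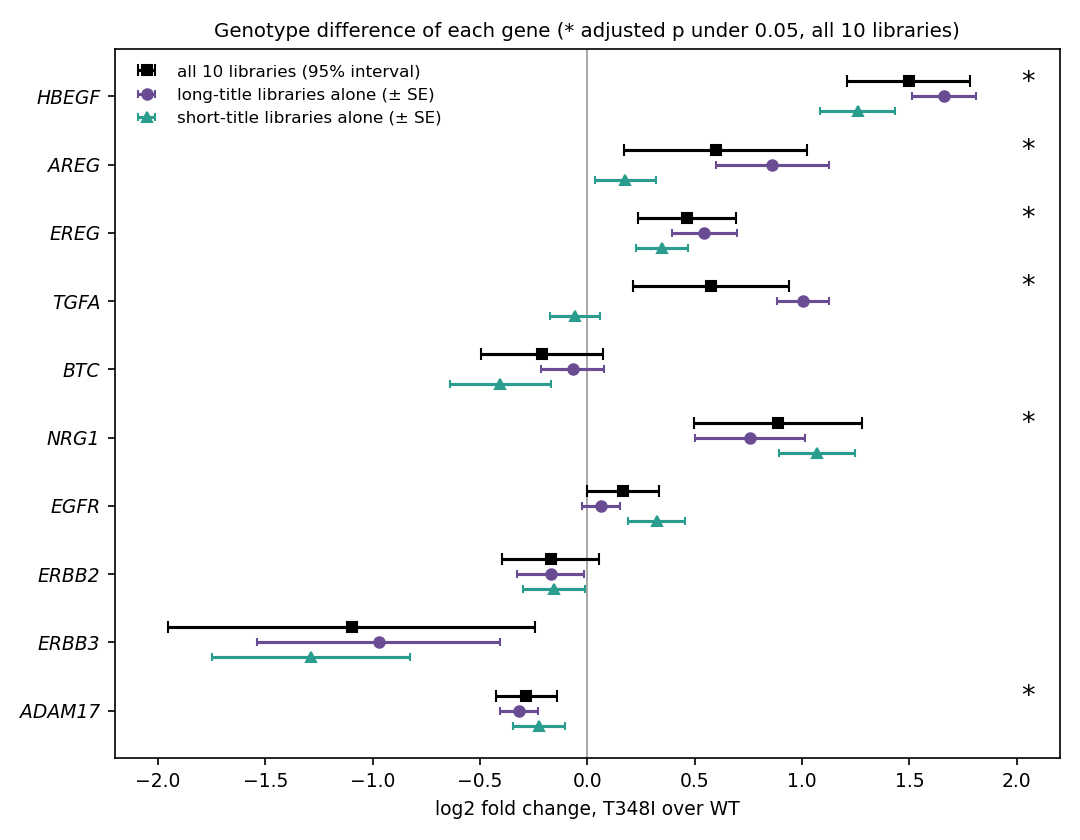
Log2 fold change (T348I over WT, horizontal axis) of each gene with all 10 libraries (squares, 95% interval), the long-title libraries alone (circles, ± SE) and the short-title libraries alone (triangles, ± SE); asterisks mark an adjusted p under 0.05 with all libraries. The TGFA estimates of the 2 styles lie apart, at 1.003 and -0.06, while those of HBEGF lie at 1.66 and 1.26.

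The title style term of the same model passed for 6 of these genes and for 43.1% of all genes tested. AREG was lower in the short-title libraries (log2 -1.31) (edgeR adjusted p = 0.000306) and EREG likewise (log2 -0.94, edgeR adjusted p = 3.28e-05), each larger in size than its genotype difference of 0.60 and 0.46. ADAM17 was lower too (log2 -0.48). ERBB2 was higher by 0.78, NRG1 by 0.57 and EGFR by 0.38. HBEGF, TGFA, BTC and ERBB3 did not pass. For TGFA the term (log2 0.001) pooled opposite differences. Its short-title mean was above the long-title mean in WT (125.9 against 87.4 CPM) and below it in T348I (119.7 against 175.5 CPM). What the styles stand for is not stated in the labels.

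To set the genes beside each other, CPM was divided by the exon-union length (RPKM, per kilobase). In WT the order was AREG (29.2 ± 14.2), EREG (27.4 ± 9.56), TGFA (20.7 ± 4.66), EGFR (17.7 ± 1.90), ADAM17 (12.4 ± 2.39), HBEGF (6.83 ± 1.18), BTC (3.03 ± 0.26), ERBB2 (2.12 ± 0.70), NRG1 (1.83 ± 0.55) and ERBB3 (0.21 ± 0.11 RPKM; SD, n = 5 throughout). AREG was above EREG in 3 of 5 WT libraries, and ERBB2 above NRG1 in 3 of 5, so those neighbours did not differ beyond their spread. The order of EREG and TGFA in WT followed the title style. EREG was above TGFA in every WT long-title library (26.1 to 41 against 14.5 to 19.2 RPKM). It was below TGFA in both WT short-title libraries (18.15 and 19.17 against 25.17 and 25.55 RPKM). In T348I, HBEGF (19.5 ± 3.43 RPKM) was above ADAM17 (10.1 ± 1.67 RPKM) in 5 of 5 libraries, whereas in WT it was below ADAM17 in 5 of 5. NRG1 (3.43 ± 1.09 RPKM) was above ERBB2 in 5 of 5 T348I libraries, against 2 of 5 in WT. It was above BTC in 3 of 5 T348I libraries, which did not separate them, and in 0 of 5 WT libraries. The order depends on the length used: by coding length AREG came after EREG, TGFA and EGFR in WT. NRG1 came before ERBB2 in WT by coding length, and before BTC in WT by the length of the longest transcript. The place of NRG1 against each of them thus depends on the length.

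**Figure D3:**
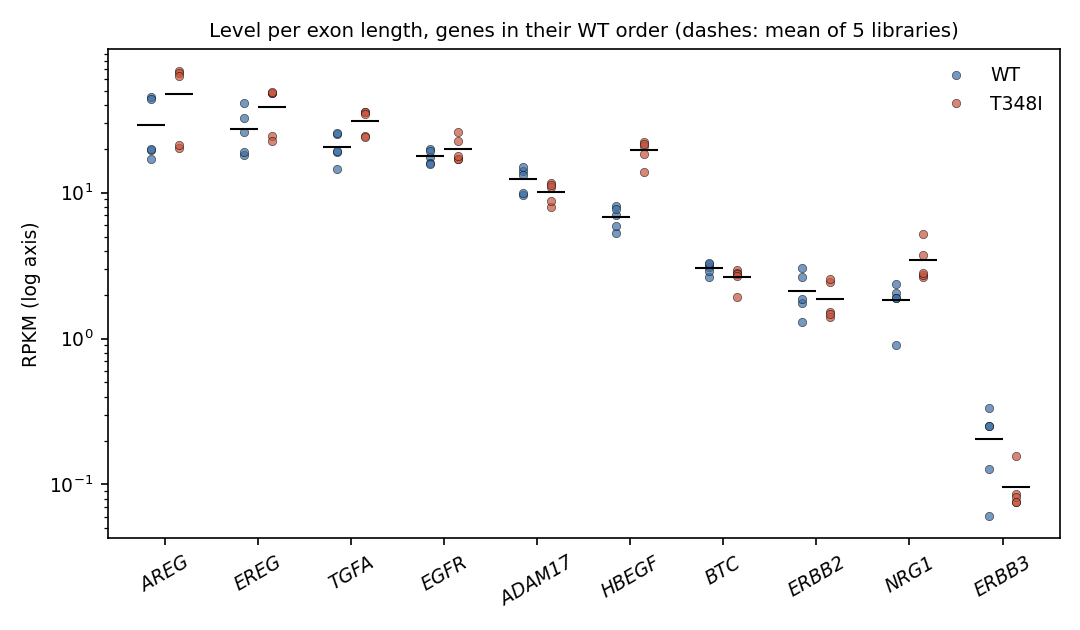
Level per kilobase of exon (RPKM, logarithmic axis) of the 10 genes in the order of their WT means; points are libraries by genotype and dashes the mean of 5. HBEGF lies below ADAM17 in WT, at a mean of 6.83 against 12.4, and above it in T348I, at 19.5 against 10.1.

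As a share of the summed RPKM of the 6 ligands, HBEGF took 7.87 ± 1.39% in WT (range 6.02 to 9.84%) and 14.4 ± 3.28% in T348I (range 11.8 to 19.5%), so the ranges did not overlap. AREG took 31.4 ± 7.61% and 31.5 ± 7.98%, and EREG 30.5 ± 5.72% and 26.7 ± 1.03% (SD, n = 5 each). BTC took 3.59 ± 0.94% in WT and 1.98 ± 0.62% in T348I, and its range over libraries overlapped that of NRG1 in both genotypes. Compared within each library, NRG1 was above BTC in 0 of 5 WT and 3 of 5 T348I libraries. These shares compare genes within a library and are set by all 6 levels. They also depend on the length used. The exon-union length is 1648 bases for AREG and 5717 for EREG, whereas the coding lengths are 822 and 507 bases. By coding length AREG came after EREG and TGFA in WT, and shares by that length were not computed.

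The other members of the family were scarce. EGF, the founding ligand, fell by 0.78 on the log2 scale (5.99 to 3.52 CPM; edgeR adjusted p = 0.0281), a call that ended on leaving out either short-title library of either genotype or T348I long-title library 1 or 2. EPGN and the neuregulins NRG2, NRG3 and NRG4 did not reach 1 CPM in any library, and ERBB4, the other neuregulin receptor, had at most 1 read in a library.

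Of 14 genes for shedding and processing of the ligands, 1 rose and 1 fell (14.3%, beside 27.0% of all genes). ADAM19, a metalloprotease that cleaves neuregulins, rose (log2 0.38, edgeR adjusted p = 0.00597), and TIMP3, an inhibitor of ADAM17, fell (log2 -0.41, edgeR adjusted p = 0.00902). ADAM10, the protease for BTC and EGF, had a log2 value of -0.20 (edgeR adjusted p = 0.0971), and the ADAM17 cofactors RHBDF1 and RHBDF2 had 0.03 and -0.54 (edgeR adjusted p = 0.851 and 0.119). Of 18 tested genes linked to the attenuation of receptor signalling, 3 rose and 3 fell, a share (33.3%) near the 27.0% of all genes. UBASH3B, a phosphatase that binds CBL, rose (log2 1.01, edgeR adjusted p = 0.00202), as did SH3KBP1, the CBL-binding adaptor CIN85 (log2 0.37, edgeR adjusted p = 0.0147), and CBL, an E3 ligase for EGFR (log2 0.25, edgeR adjusted p = 0.0337). CBLB, a related ligase, fell (log2 -0.69, edgeR adjusted p = 0.000359), as did PTPRJ, a receptor phosphatase (log2 -0.56, edgeR adjusted p = 0.00146). The feedback inhibitor ERRFI1 did not pass (log2 -0.15). The medians of both lists, 0.03 and 0.06, lay close to the -0.03 of all genes.

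Among 14 genes of receptor trafficking, ANXA1 alone passed (7.14%, beside 27.0% of all genes), higher in T348I (log2 0.25, edgeR adjusted p = 0.0468). Its call ended under 16 of the 24 alternatives, among them RLE size factors, library sizes alone and unstranded counts. Of 26 tested adaptors and effectors, 3 rose and 5 fell (median log2 -0.05), a share (30.8%) near the 27.0% of all genes. MAP2K1, encoding the kinase MEK1, rose (log2 0.44), as did HRAS (log2 0.42). The docking protein GAB1 (log2 -0.35), the RAS exchange factor SOS1 (log2 -0.29), STAT3 (log2 -0.40) and STAT5A (log2 -1.02) fell. Of the 19 named genes that are no members of the 10, 8 kept their call with the long-title T348I libraries added up as 1 (UBASH3B, CBLB, PTPRJ, MAP2K1, FOSL1, LIF, MYC and TFPI2), and the calls of EGF, SH3KBP1, CBL, ANXA1, GAB1, STAT5A, SOS1 and STAT3 each ended on leaving out at least 1 library.

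Of 21 transcriptional targets of EGFR and ERK signalling, 13 rose and 0 fell (61.9%, beside 13.7% of all genes higher; median log2 0.56). FOSL1, an AP-1 subunit that responds to ERK, rose from 65.9 ± 12.4 to 171 ± 37.6 CPM (log2 1.36, edgeR adjusted p = 4.99e-05). LIF (log2 1.29), MYC (log2 0.95) and TFPI2 (log2 1.57) rose as well, with edgeR adjusted p-values of 4.99e-05, 0.000111 and 0.000213. FOS, the immediate early AP-1 subunit, did not pass (log2 -0.08, edgeR adjusted p = 0.839), and neither did DUSP4 or SPRED1. The count was 14 without WT long-title library 1, 11 with the long-title T348I libraries added up as 1, and 6 without the title style in the model. The list was chosen with earlier results of these libraries known, so its direction is no independent evidence.

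**Figure D4:**
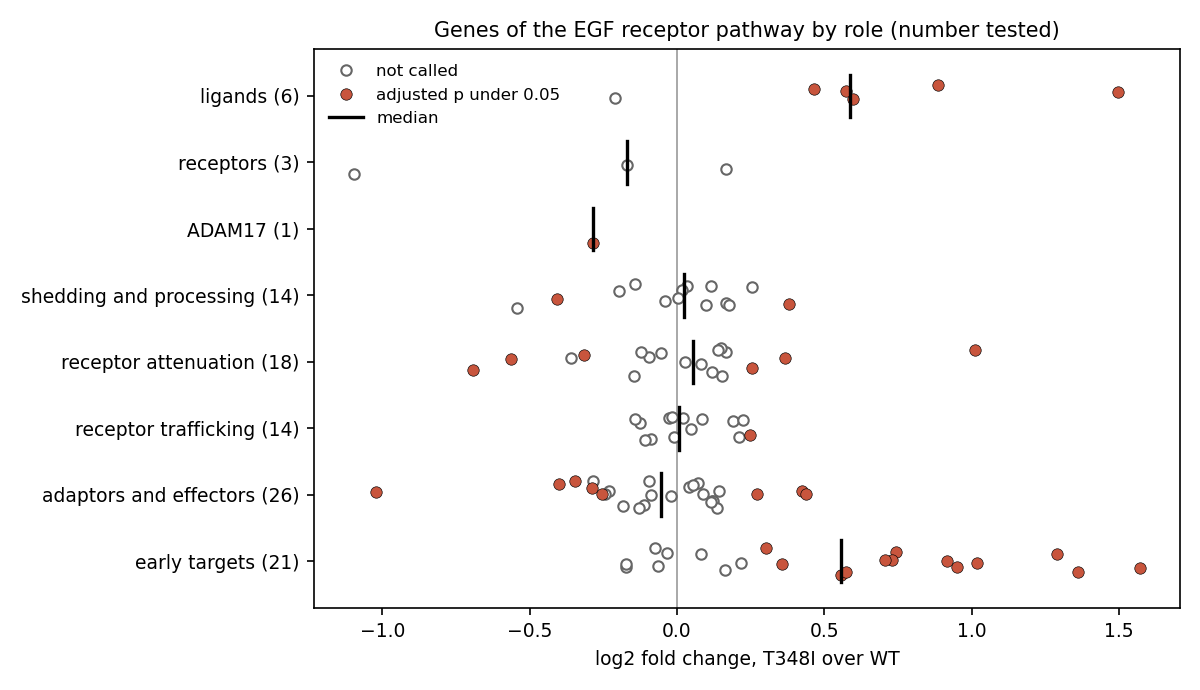
Log2 fold change (T348I over WT, horizontal axis) of the tested genes of each list, with the number tested in brackets; filled points have an adjusted p under 0.05, open points do not, and bars are list medians. The early targets, with 13 of 21 filled and all of those to the right, and the ligands, with 5 of 6, lie furthest right. EGF, which was lower in T348I, is not among the 6 ligands plotted.

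The genes whose level followed HBEGF most closely over the 10 libraries, after the mean of each title style was subtracted, were NSD2 (Pearson r = 0.992), E2F1 (r = 0.991) and PVR (r = 0.989), out of 11053 candidates. NRG1 was followed most closely by SH3KBP1 (r = 0.997), ATP1B3 (r = 0.990) and STK24 (r = 0.990). These are descriptions across 10 libraries that share 2 genotypes and 2 title styles, and the highest of many candidates are high by selection.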

How the data were processed

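Gene counts for 10 libraries, as the authors deposited them, were made from poly(A) RNA with a stranded kit per the labels' protocols. CASAVA 1.8.2, Trimmomatic 0.35, STAR 2.5.1b and GRCh38 appear in the submitters' processing notes, and the annotation used for counting is not given in the sources used here. The opposite-strand column was used, since it held 92.2 to 94.5% of stranded counts. Reads not assigned to a gene, unmapped reads included (20.7 to 30.0%), and 45 duplicate Y identifiers were left out. Names, lengths and coordinates came from GENCODE 29 (57836 of 58174 identifiers matched) and promoters from RefSeq. Tests used edgeR 4.0.16 (R 4.3.3): filterByExpr with a minimum count of 10 and total of 15, TMM, a quasi-likelihood F test with genotype and title style as terms, and Benjamini-Hochberg adjustment over 13743 genes at 0.05. CPM used TMM library sizes. DESeq2 1.42.0, limma 3.58.1 and leaving out libraries were alternatives. The code was tested on simulated data. The genes named were the 10 members, the called genes of lowest p in each list (up to 4 in the list's main direction and 2 in the other) and the 3 genes most correlated with HBEGF, NRG1 and EGFR (those of EGFR are not reported here); other genes were named after their values were seen. Members and lists were chosen with earlier results of these data known. Intervals cover the spread between libraries only.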

Additional observations from a re-analysis of the deposited data

Results flagged for a closer look

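Levels of the 10 genes were checked for a library far from the rest of its genotype, in 20 groups of 5, of which chance flags about 1. BTC in T348I short-title library 1 had 5.40 CPM, and the other T348I libraries had 7.57 to 8.37 CPM. ERBB3 in T348I long-title library 1 had 1.42 CPM, and the other T348I libraries had 0.682 to 0.781 CPM. The genotype difference of TGFA ran in opposite directions in every library of the 2 title styles, with a difference between the styles of -1.08 on the log2 scale (edgeR interaction test, adjusted p = 0.509).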

How the results depend on the processing

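HBEGF kept its direction and call under all 24 alternatives. The 5 genes called higher became 2 without the title style in the model, 2 with the long-title and 2 with the short-title libraries alone, 2 with the long-title T348I libraries added up as 1, and 3 with that and WT long-title library 1 left out (an alternative chosen after seeing the data), and ranged from 3 to 6 on leaving out 1 library. The 1 gene called lower became 2 with DESeq2 and with WT long-title libraries 1 and 2 left out, and 0 without the title style, within either style alone and with that sum (range 1 to 2 on leaving out 1 library). Over all genes the 3709 calls became 1315 without the title style, 1197 and 1534 in the long-title and short-title libraries alone, 1462 with the sum, and 2262 with the sum and WT long-title library 1 left out (2450 to 4676 on leaving out 1 library, lowest without T348I short-title library 1). The long-title count of 2 became 5 without the filter on low counts (0 to 7 on leaving out 1 library), and the interaction count of 0 became 1 without that filter (0 to 1 on leaving out 1 library). TGFA reversed to -0.058 in the short-title libraries alone. Apart from changes that follow from fewer libraries, the cause was not tested. With the replicate block, the counts were 5 higher, 1 lower and 3741 over all genes, and no member's call changed. Deviations of same-numbered libraries correlated at r from -0.0253 to 0.217, not over 0.1 for every number and not always best with their own number, so the numbers were not taken to pair libraries. ERBB3 rested on 7 to 36 reads in a library, the fewest of the 10 genes.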
